A study of Mus musculus with 10 samples.

Results

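The RNA levels of 10 genes of glucose uptake and breakdown were followed across wild-type (WT), DGCR8 knockout (DGCR8 KO) and DDX6 knockout (DDX6 KO) mouse embryonic stem cells (ESCs). The genes are the glucose transporter Slc2a1 and the enzymes Hk2, Gpi1, Pfkp, Aldoa, Tpi1, Pgk1, Eno1, Pkm and Ldha. They were looked up by symbol, each matched 1 row of the count table, and they are 10 of the 51467 genes listed there. All 10 passed the filter on low counts, which left 11683 genes for testing.

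Expression was measured with QuantSeq, which reads the 3' end of each polyadenylated transcript, in 3 WT, 3 DGCR8 KO and 4 DDX6 KO libraries. All cells were V6.5 ESCs cultured with 15% fetal bovine serum, LIF and the 2i inhibitors PD0325901 and CHIR99021. The DGCR8 KO cells were 1 existing line of the laboratory, whereas the DDX6 KO libraries came from 2 CRISPR clones, with 2 libraries each, so a trait of 1 line or clone cannot be told apart from the loss of the gene. Nothing states that libraries of 1 line came from separate cultures, and p-values therefore measure the spread between these libraries, which may be technical. DGCR8 is needed to make canonical miRNAs, and DDX6 is an RNA helicase that acts in the repression of their targets.

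Levels are given as CPM, the reads of a gene relative to the total of its library, after scaling by the trimmed mean of M-values, and are not divided by transcript length because each transcript gives a read only at its end. A gene was taken to rise or fall at an adjusted p under 0.05 in limma-voom, with no limit on the size of the change, and values are log2 fold changes with the standard error of the fit. The total count ran from 2131156 to 4745083 per library, at which 3 counts equal 0.669 to 1.44 CPM. Dgcr8 RNA fell in DGCR8 KO by 2.34 ± 0.25 (adjusted p = 9.44e-07) and Ddx6 RNA fell in DDX6 KO by 3.05 ± 0.35 (adjusted p = 3.92e-06), and Ddx6 lay at 149 and 135 CPM in clone 1 but at 39.0 and 25.7 CPM in clone 2. The 10 ESC markers summed to 4732 to 5184 CPM in every library, although single markers moved. Of the 10, 3 rose and 4 fell in DGCR8 KO, and 2 rose and 1 fell in DDX6 KO. Over all genes tested, 19.9% rose and 16.5% fell in DGCR8 KO, and 17.9% rose and 16.6% fell in DDX6 KO. None of 5 endoderm markers passed the filter (1.63 to 5.13 CPM in sum), and markers of mesoderm (8.14 to 21.5 CPM) and fibroblasts (2.44 to 9.52 CPM) were low. The 4 trophoblast markers summed to 38.8 to 184 CPM, nearly all of it Tfap2c, the 1 of them tested, which rose in DGCR8 KO by 0.86 ± 0.23 (adjusted p = 0.00704) and fell in DDX6 KO by 0.65 ± 0.24 (adjusted p = 0.0432). Primed markers, also carried by cells leaving the naive state, summed to 203 to 300 CPM in WT, 156 to 198 CPM in DGCR8 KO and 81.4 to 107 CPM in DDX6 KO. Most of each sum was Dnmt3b, with means of 194, 112 and 75.5 CPM. Of the 4 primed markers tested, none rose, 2 fell in DGCR8 KO and 3 fell in DDX6 KO. In DGCR8 KO Otx2 and Lef1 did not pass and averaged above WT (45.7 against 35.8 CPM and 19.5 against 14.3 CPM). Whether these markers have a part in the changes described was not tested.

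Glucose enters the cell through transporters of the Slc2a family, is trapped by phosphorylation, split into 3-carbon sugars and oxidised to pyruvate, with a net gain of ATP. Lactate dehydrogenase then turns pyruvate into lactate and restores the NAD+ the pathway needs. Pluripotent cells use this route heavily even when oxygen is present, and many of the enzymes come in isozymes encoded by separate genes. The transcription factors HIF and MYC are textbook activators of several of these genes.

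Summed over the 10 genes, RNA stood at 2923 ± 174 CPM in WT (SD, n = 3), 1986 ± 277 CPM in DGCR8 KO (n = 3) and 2052 ± 81.1 CPM in DDX6 KO (n = 4). The knockout sums were 67.9% and 70.2% of the WT sum. In DGCR8 KO against WT, 6 of the 10 genes fell, none rose and 4 did not pass, and the median log2 fold change was -0.52 against 0.00 over all genes tested. For comparison, 16.5% of all genes tested fell and 19.9% rose in that contrast. In DDX6 KO against WT, 5 genes fell, 1 rose and 4 did not pass, with a median of -0.72 against 0.02 over all genes. There the background was 16.6% falling and 17.9% rising. Both contrasts use the same WT libraries, so their values are not independent of each other. Taking the more demanding limit of a log2 change beyond 1 as well, none of the 10 genes fell in DGCR8 KO (5.81% of all genes did), and Pfkp and Aldoa fell in DDX6 KO (3.66% of all genes did). Every DGCR8 KO library lay below every WT library for 6 of the genes, against 21.1% of all genes, and every DDX6 KO library did so for 7, against 19.4% of all genes. Under scaling by the 92 spike-in sequences, whose share of the reads varied from 1.10% to 2.36% between libraries, the directions of all these changes held but only the fall of Pfkp in DDX6 KO still passed.

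**Figure D1:**
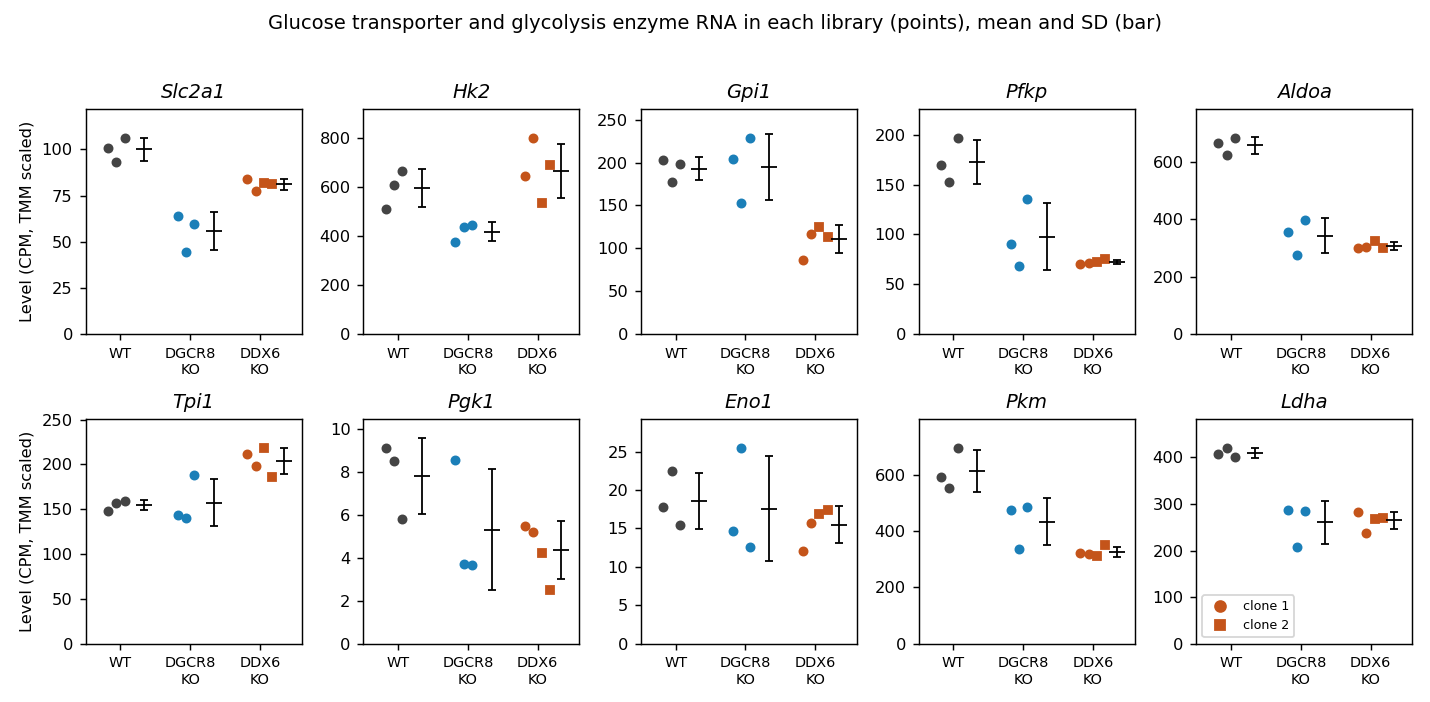
Level of each of the 10 genes in every library (vertical axis, CPM after TMM scaling, starting at 0 and differing between panels), with WT in grey, DGCR8 KO in blue and DDX6 KO in orange (circles, clone 1; squares, clone 2). The black bar beside each group is its mean and SD. Slc2a1, Aldoa, Pfkp, Pkm and Ldha lay lower in all 7 knockout libraries than in any WT library, whereas Tpi1 lay highest in DDX6 KO.

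Slc2a1 (chr4:119108711-119137983 in mm10), the transporter GLUT1 that supplies basal glucose uptake, was at 101, 93.4 and 106 CPM in WT. It was at 63.7, 44.5 and 59.5 CPM in DGCR8 KO and at 83.9 and 77.2 CPM in clone 1 and 81.6 and 81.4 CPM in clone 2 of DDX6 KO. The groups did not overlap, with WT highest, DDX6 KO between and DGCR8 KO lowest. The change in DGCR8 KO was -0.86 ± 0.14 (adjusted p = 0.000102), which is 0.552 times the WT level. In DDX6 KO it was -0.31 ± 0.12 and did not pass (adjusted p = 0.0584), although it did in a fit of the WT and DDX6 KO libraries alone (adjusted p = 0.0272) and in one without the second DGCR8 KO library (adjusted p = 0.0292).

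Hk2 (chr6:82725025-82774454), hexokinase 2, which phosphorylates glucose as it enters, was at 513, 609 and 665 CPM in WT. DGCR8 KO gave 376, 436 and 444 CPM, all below WT. DDX6 KO gave 644 and 799 CPM in clone 1 and 535 and 689 CPM in clone 2, a range that overlapped with WT. Hk2 fell in DGCR8 KO by 0.52 ± 0.13 (adjusted p = 0.00489), and its value in DDX6 KO was 0.15 ± 0.12 (95% interval -0.11 to 0.40, adjusted p = 0.368).

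Gpi1 (chr7:34201330-34230336), the isomerase that turns glucose 6-phosphate into fructose 6-phosphate, was the gene of the set that fell in DDX6 KO with a value near 0 in DGCR8 KO. It was at 203, 178 and 198 CPM in WT, 204, 153 and 228 CPM in DGCR8 KO, and 86.8, 117, 125 and 114 CPM in DDX6 KO. All 4 DDX6 KO libraries lay below all others, and the DGCR8 KO libraries spread around WT. The change in DDX6 KO was -0.81 ± 0.14 (adjusted p = 0.000255), and that in DGCR8 KO was -0.01 ± 0.14 (95% interval -0.31 to 0.29).

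Pfkp (chr13:6579768-6648777), the platelet-type phosphofructokinase that commits sugar to glycolysis, was at 169, 153 and 196 CPM in WT. DGCR8 KO gave 90.0, 68.5 and 135 CPM, and DDX6 KO gave 70.0, 71.3, 72.1 and 75.3 CPM. Both knockouts lay wholly below WT, and the DGCR8 KO libraries spread far more widely than those of DDX6 KO. The change was -0.89 ± 0.17 in DGCR8 KO (adjusted p = 0.000438) and -1.26 ± 0.16 in DDX6 KO (adjusted p = 1.44e-05), the lowest log2 value of the 10 genes in that contrast. The 3' end of the longer Pfkp transcript runs into that of Pitrm1 on the opposite strand, and the counting kept to the sense strand.

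Aldoa (chr7:126795234-126808875), the aldolase that splits fructose 1,6-bisphosphate, was at 668, 624 and 683 CPM in WT, where it had the highest mean of the set, with ranges that overlapped those of Pkm and Hk2. It dropped to 355, 276 and 400 CPM in DGCR8 KO and to 299, 303, 326 and 300 CPM in DDX6 KO. No knockout library reached any WT library. The change was -0.96 ± 0.11 in DGCR8 KO (adjusted p = 3.47e-06) and -1.10 ± 0.11 in DDX6 KO (adjusted p = 6.17e-07).

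Pkm (chr9:59656368-59679375), pyruvate kinase, which makes ATP in the last step to pyruvate, was at 592, 552 and 695 CPM in WT. It was at 476, 338 and 488 CPM in DGCR8 KO and at 321, 320, 313 and 352 CPM in DDX6 KO. WT lay above both knockouts without overlap. The change was -0.52 ± 0.13 in DGCR8 KO (adjusted p = 0.00327) and -0.91 ± 0.12 in DDX6 KO (adjusted p = 1.77e-05). Reads at the shared end of the gene do not separate the M1 and M2 splice forms, so the values are their sum.

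Ldha (chr7:46845839-46855627), the lactate dehydrogenase subunit that favours making lactate, was at 408, 420 and 401 CPM in WT. DGCR8 KO gave 288, 208 and 286 CPM and DDX6 KO gave 282, 238, 268 and 271 CPM. The knockouts overlapped with each other and not with WT. The changes were -0.67 ± 0.12 in DGCR8 KO (adjusted p = 0.000236) and -0.63 ± 0.11 in DDX6 KO (adjusted p = 0.000279).

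Tpi1 (chr6:124810586-124814296), triosephosphate isomerase, which interconverts the 3-carbon sugars, moved the other way. It was at 148, 157 and 159 CPM in WT, at 144, 140 and 188 CPM in DGCR8 KO, and at 212 and 199 CPM in clone 1 and 218 and 186 CPM in clone 2 of DDX6 KO. All DDX6 KO libraries lay above WT, and 1 DGCR8 KO library lay above 1 of them. Tpi1 rose in DDX6 KO by 0.39 ± 0.11 (adjusted p = 0.0120) and was at 0.00 ± 0.12 in DGCR8 KO (95% interval -0.25 to 0.26). With clone 2 as the only DDX6 KO clone the rise no longer passed.

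Tpi1 and Hk2 lie on chromosome 6, whose 561 tested genes had a median log2 change of 0.59 in DDX6 KO (1.51-fold) and of 0.07 in DGCR8 KO. The median of chromosome 6 genes was 0.65 and 0.62 above the WT mean in the libraries of clone 1 and 0.54 and 0.53 in those of clone 2. Against that median, Tpi1 stood at -0.20 and Hk2 at -0.45 in DDX6 KO. Set against tested genes within 10 Mb, they stood at -0.21 and -0.26. Both values lay below the middle of their chromosome, and the higher Tpi1 RNA in DDX6 KO cannot be told apart from the shift of chromosome 6 as a whole. The other 8 genes lie on chromosomes 4, 7, 9, 13 and X.

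Pgk1 and Eno1 were measured with few reads. Pgk1 (chrX:106187100-106203699), phosphoglycerate kinase, was at 9.12, 8.52 and 5.80 CPM in WT, 8.57, 3.73 and 3.67 CPM in DGCR8 KO and 5.49, 5.22, 4.22 and 2.52 CPM in DDX6 KO, from 9 to 28 reads a library. The DDX6 KO libraries lay below WT, and the changes of -0.81 ± 0.36 in DDX6 KO (adjusted p = 0.0918) and -0.49 ± 0.38 in DGCR8 KO (adjusted p = 0.335) did not pass. Eno1 (chr4:150236952-150248879), the enolase before pyruvate kinase, was at 17.8, 22.5 and 15.4 CPM in WT, 14.7, 25.5 and 12.6 CPM in DGCR8 KO and 12.1, 15.7, 16.9 and 17.4 CPM in DDX6 KO. All 3 groups overlapped, and no change passed (adjusted p = 0.824 in DGCR8 KO and 0.515 in DDX6 KO).

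The level of Eno1 is uncertain, since the study kept only reads that mapped to 1 place in the genome. Of the 351 stretches of 50 bases in the last 400 bases of its main transcript, 83.8% also occur in transcripts of 5 other genes in GENCODE M21. For Gapdh, the next enzyme after Tpi1 and usually among the most abundant RNAs of a cell, the share was 87.7%, over 117 other genes, and the count table gave it 1.02 to 4.22 CPM. The share was 0% for Slc2a1, Hk2, Tpi1, Pkm and Ldha, 1.71% for Aldoa and 7.98% for Gpi1. For Pfkp it was 100%, all with the overlapping end of Pitrm1 on the opposite strand, which itself had 93 to 261 reads a library. It was also 0% for Pgk1 and for Pgam1, which was at 0 to 2.44 CPM and was not tested. Copies of these genes outside the annotated transcripts were not searched, so the levels of Pgk1 and Pgam1 are uncertain too.

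**Figure D2:**
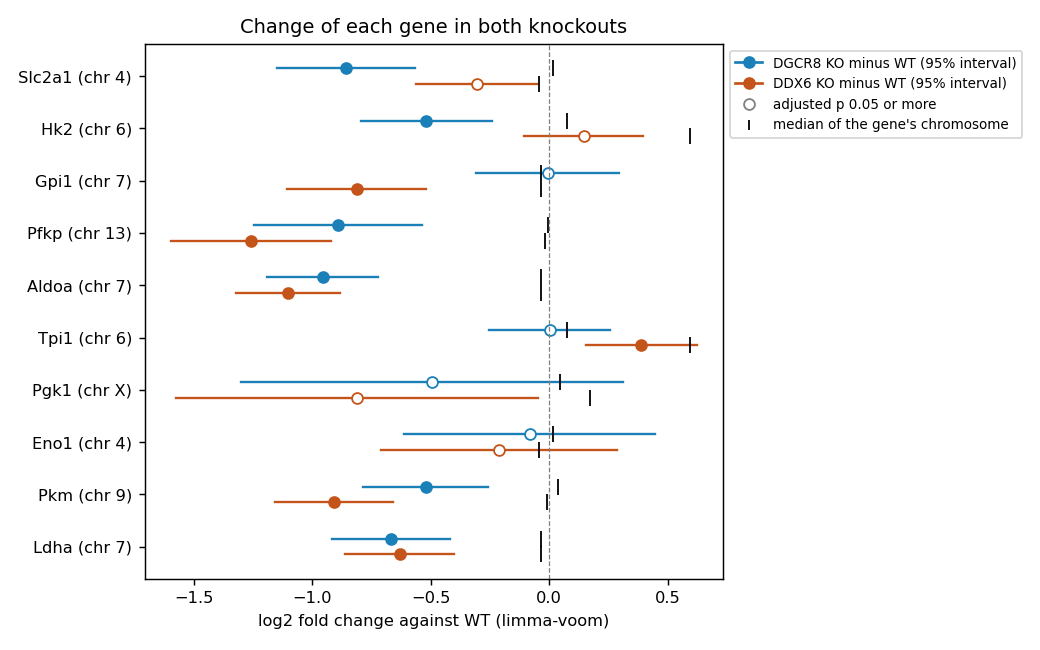
log2 fold change against WT (horizontal axis, limma-voom) of each gene in DGCR8 KO (blue) and DDX6 KO (orange), with the 95% interval as a line and open circles for an adjusted p of 0.05 or more. Black ticks mark the median change of all tested genes on the same chromosome, which for Tpi1 and Hk2 in DDX6 KO was 0.59, to the right of both genes.

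The knockouts were also compared with each other. In DGCR8 KO against DDX6 KO, 2 of the 10 genes were higher and 3 lower, where 23.0% of all genes tested were higher and 21.0% lower. Gpi1 was higher in DGCR8 KO by 0.81 ± 0.14 (adjusted p = 0.000154), without overlap, and Pkm by 0.39 ± 0.12 (adjusted p = 0.0153), with 1 DGCR8 KO library at the level of DDX6 KO. Slc2a1 was lower in DGCR8 KO by 0.55 ± 0.13 (log2 difference -0.55, adjusted p = 0.00271). The chromosome 6 genes Hk2 (-0.66 ± 0.12, adjusted p = 0.000296) and Tpi1 (-0.39 ± 0.11, adjusted p = 0.00955) were also lower, where the median of that chromosome was -0.52. For Aldoa and Ldha no difference was detected, with 95% intervals of -0.09 to 0.38 and -0.28 to 0.20. The value for Pfkp was 0.37 ± 0.17 (adjusted p = 0.0904), and it passed in the edgeR test (adjusted p = 0.0450), in the DESeq2 test (adjusted p = 0.0499) and without the second DGCR8 KO library (adjusted p = 0.00438). Without that library Aldoa passed too (adjusted p = 0.0211). The higher Pkm level did not pass without the first or without the third DGCR8 KO library, nor with either DDX6 KO clone alone. The lower Tpi1 level did not pass without the first DGCR8 KO library.

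The second DGCR8 KO library was the lowest of the 3 for Slc2a1, Gpi1, Pfkp, Aldoa, Tpi1, Pkm and Ldha, and the highest for Eno1. Its 10 genes summed to 1694 CPM, against 2020 and 2244 CPM in the other two. The WT libraries summed to 2829, 2818 and 3124 CPM in order of number, so the second had the lowest sum, close to the first. The second WT library was also the lowest of its group for Slc2a1, Gpi1, Pfkp, Aldoa and Pkm, and the highest for Eno1. Unlike the second DGCR8 KO library, it was the highest of its group for Ldha and lay between the others for Tpi1. Leaving out any 1 library left 6 genes falling in DGCR8 KO, and 5 or 6 falling and 1 rising in DDX6 KO.

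The clones of DDX6 KO gave no detectable difference in these genes. None of the 10 passed in clone 2 against clone 1 in limma-voom, and none had an unadjusted p under 0.05. Of all 11683 genes tested, 5 (0.0428%) passed, and 284 had an unadjusted p under 0.05. The lack of a call was therefore not particular to these genes. The largest log2 difference in size was that of Pgk1, -0.73 with a 95% interval of -1.87 to 0.41. For Aldoa the interval ran from -0.26 to 0.37 and for Pkm from -0.30 to 0.41. Each clone against WT gave a fall of Aldoa (-1.13 in clone 1 and -1.08 in clone 2), Pfkp (-1.29 and -1.23), Pkm (-0.94 and -0.88), Gpi1 (-0.93 and -0.70) and Ldha (-0.66 and -0.60), all at an adjusted p of 0.00607 or less.

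For several steps the isozymes could be compared as shares of the counts of the genes for that step. Slc2a1 made up 9.17% ± 0.63 of the counts of Slc2a1 and Slc2a3 in WT (SD, n = 3), 9.13% ± 1.90 in DGCR8 KO (n = 3) and 4.15% ± 0.52 in DDX6 KO (n = 4). Slc2a3, the high-affinity neuronal-type transporter GLUT3 on chromosome 6, was at 1001, 999 and 973 CPM in WT, 532, 589 and 555 CPM in DGCR8 KO and 2257, 1752, 1962 and 1609 CPM in DDX6 KO. The groups lay far apart, and Slc2a3 fell in DGCR8 KO by 0.83 ± 0.11 (adjusted p = 1.92e-05) and rose in DDX6 KO by 0.92 ± 0.10 (adjusted p = 2.31e-06), beyond the 0.59 of its chromosome. With each read standing for 1 transcript, Slc2a3 was therefore the main glucose transporter RNA of the pair in all 10 libraries.

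Hk2 made up 84.4% ± 1.22 of the counts of Hk1 and Hk2 in WT, 84.2% ± 0.47 in DGCR8 KO and 89.9% ± 1.51 in DDX6 KO. Hk1, the ubiquitous hexokinase, fell in both contrasts (-0.49 ± 0.13, adjusted p = 0.00719, and -0.58 ± 0.12, adjusted p = 0.00151). Less the medians of their chromosomes, Hk2 stood at -0.45 and Hk1 at -0.56 in DDX6 KO, so the higher Hk2 share cannot be told apart from the shift of chromosome 6. Pfkp made up 63.5% ± 2.83 of phosphofructokinase counts in WT, 51.5% ± 4.94 in DGCR8 KO and 55.8% ± 1.96 in DDX6 KO. The liver-type Pfkl was at -0.40 ± 0.16 in DGCR8 KO (adjusted p = 0.0625) and fell in DDX6 KO by 0.85 ± 0.16 (adjusted p = 0.000482), and the muscle-type Pfkm rose in DGCR8 KO by 0.62 ± 0.21 (adjusted p = 0.0273). Ldha made up 92.9% ± 1.38 of the counts of Ldha and Ldhb in WT, 85.3% ± 4.99 in DGCR8 KO and 97.2% ± 0.30 in DDX6 KO. Ldhb, the heart-type subunit, also on chromosome 6, was at 24.5, 38.5 and 31.9 CPM in WT, 41.3, 53.3 and 35.8 CPM in DGCR8 KO and 7.33, 7.30, 8.79 and 7.28 CPM in DDX6 KO. Its change in DDX6 KO was -2.03 ± 0.24 (adjusted p = 7.19e-06), against a rise of its chromosome. Of the 12 comparisons of these shares, none can go below an exact permutation p of 0.0571 for 3 against 4 libraries or 0.10 for 3 against 3 (two-sided). The 4 shares of DDX6 KO against WT all stood at that smallest p (0.0571, adjusted 0.0980), each without overlap between the groups. In DGCR8 KO against WT the Pfkp share (-11.9 percentage points) and the Ldha share (-7.56) also stood at the smallest p their design allows (0.10, adjusted 0.133), without overlap. In DGCR8 KO against DDX6 KO the shares of Slc2a1, Hk2 and Ldha stood at 0.0571 (adjusted 0.0980), without overlap, and that of Pfkp, which overlapped, at 0.229 (adjusted 0.274).

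**Figure D3:**
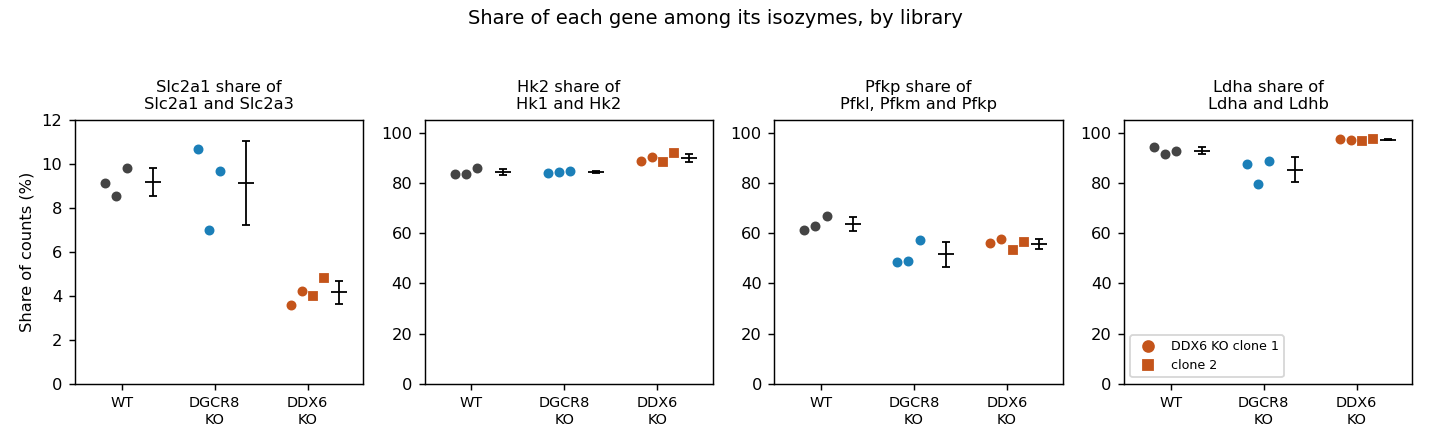
Share of Slc2a1, Hk2, Pfkp and Ldha in the counts of their isozyme genes (vertical axis, percent, from 0) in each library, with the mean and SD as a black bar. The Slc2a1 panel ends at 12% and the others just above 100%, and in DDX6 KO the Slc2a1 share lay near 4.15% and the Ldha share near 97.2%.

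The genes around these steps were taken from lists of pathway members. The counts for each list stand beside those over all genes tested, of which 19.9% rose and 16.5% fell in DGCR8 KO. In DDX6 KO 17.9% of all genes tested rose and 16.6% fell. Of 18 other genes of glycolysis, its isozymes and lactate transport, 12 were tested, of which 2 rose and 5 fell in DGCR8 KO and 4 rose and 5 fell in DDX6 KO, with medians of -0.45 and -0.40. Of the 4 that rose in DDX6 KO, Slc2a3, Bpgm and Eno2 lie on chromosome 6, with its median of 0.59, and Eno3 does not. Slc16a3 (MCT4), which exports lactate, fell in both contrasts (-1.39 ± 0.24, adjusted p = 0.000155, and -0.92 ± 0.20, adjusted p = 0.00189). Slc16a1 (MCT1), another lactate transporter, fell in DGCR8 KO by 0.71 ± 0.13 (adjusted p = 0.000437). Bpgm, which makes 2,3-bisphosphoglycerate and lies on chromosome 6, fell in DGCR8 KO by 1.80 ± 0.40 (adjusted p = 0.00166) and rose in DDX6 KO by 0.76 ± 0.23 (adjusted p = 0.0172). Aldoc, the brain-type aldolase, rose in DGCR8 KO by 0.79 ± 0.17 (adjusted p = 0.00120) and fell in DDX6 KO by 0.84 ± 0.19 (adjusted p = 0.00231). The enolase Eno3 rose in DDX6 KO by 1.19 ± 0.23 (adjusted p = 0.000656). Eno2 was at 0.446 to 1.02 CPM in WT and 2.24 to 3.87 CPM in DDX6 KO, and it passed the filter only through DDX6 KO, where it is high, so no test of it is given although it is among the 4 counted as rising.

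Of 15 regulators of the pathway, 11 were tested, of which 1 rose and 2 fell in DGCR8 KO and 2 rose and 3 fell in DDX6 KO. Pdk1, a kinase that shuts off pyruvate dehydrogenase, was at 62.4, 57.6 and 52.2 CPM in WT, 168, 146 and 145 CPM in DGCR8 KO and 53.5, 45.6, 41.2 and 35.3 CPM in DDX6 KO. It rose in DGCR8 KO by 1.43 ± 0.14 (adjusted p = 3.85e-07). Pdp2, the phosphatase that reverses that step, fell in DGCR8 KO by 1.11 ± 0.17 (adjusted p = 7.33e-05) and in DDX6 KO by 1.24 ± 0.16 (adjusted p = 1.71e-05). It lies on chromosome 8, whose median was -0.45 in DGCR8 KO and -0.03 in DDX6 KO. Fbp2, a gluconeogenic bisphosphatase, was at 13.4 to 14.4 CPM in WT, at 1.02 to 2.76 CPM in DGCR8 KO and at 0 to 2.46 CPM in DDX6 KO. It is among the genes counted as falling in both contrasts, but it passed the filter only through WT, where it is high, so no test of it is given. Pfkfb4 was at 2.73 to 3.12 CPM in WT, 4.07 to 7.74 CPM in DGCR8 KO and 4.57 to 8.12 CPM in DDX6 KO. It is among the 2 counted as rising in DDX6 KO, but it passed the filter only through the knockouts, where it is higher, so no test of it is given.

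The 7 genes of the pentose phosphate pathway, which branches off after hexokinase, were all tested. In DGCR8 KO 2 rose and 2 fell, and in DDX6 KO 1 rose and 2 fell. Pgd, which makes NADPH, was at 379, 358 and 364 CPM in WT and 758, 724 and 823 CPM in DGCR8 KO, a rise of 1.06 ± 0.10 (adjusted p = 1.75e-07), while DDX6 KO lay at 329 to 403 CPM. Rpia, the ribose 5-phosphate isomerase, rose in DGCR8 KO by 2.19 ± 0.24 (adjusted p = 1.54e-06). It was also the gene that rose in DDX6 KO (0.69 ± 0.25, adjusted p = 0.0433), and it lies on chromosome 6, 0.09 above that chromosome's median. Pgls fell in DGCR8 KO by 1.24 ± 0.18 (adjusted p = 4.10e-05) and in DDX6 KO by 0.43 ± 0.16 (adjusted p = 0.0413). It lies on chromosome 8, whose median was -0.45 in DGCR8 KO and -0.03 in DDX6 KO.

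Of the 7 tested genes for pyruvate dehydrogenase, pyruvate carboxylase and pyruvate import, none passed in DGCR8 KO in limma-voom, and 1 rose and 2 fell in DDX6 KO, with log2 values within -0.64 to 0.46. All 16 citric acid cycle genes were tested, of which 3 rose and none fell in DGCR8 KO and 2 rose and 5 fell in DDX6 KO. None of them went beyond 1 on the log2 scale in either contrast with a passing p, and the medians were 0.07 and -0.13. In DDX6 KO, Sdhb (-0.64 ± 0.13), a subunit of succinate dehydrogenase, Mdh2 (-0.57 ± 0.10), the mitochondrial malate dehydrogenase, and Idh3g (-0.52 ± 0.14) were among those that fell, and Mdh2 rose in DGCR8 KO (0.40 ± 0.11, adjusted p = 0.00579). The 2 that rose in DDX6 KO, Suclg1 (0.39 ± 0.10) and Suclg2 (0.71 ± 0.14), both lie on chromosome 6. In the direct contrast Sdhd was lower in DGCR8 KO (-1.30 ± 0.35, adjusted p = 0.00536), with overlap between the groups.

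The HIF and MYC genes were counted beside all genes tested, of which 19.9% rose and 16.5% fell in DGCR8 KO. In DDX6 KO 17.9% of all genes tested rose and 16.6% fell. Of 4 listed Myc genes, 3 were tested, of which 2 rose and 1 fell in DGCR8 KO, and 0 rose and 2 fell in DDX6 KO. Of 22 listed genes of the hypoxia response, 20 were tested, of which 6 rose and 6 fell in DGCR8 KO and 3 rose and 6 fell in DDX6 KO. Hif1a fell in DGCR8 KO by 0.36 ± 0.10 (adjusted p = 0.00958) and was at 0.02 ± 0.09 in DDX6 KO. In DGCR8 KO, Egln3 (1.70 ± 0.25, adjusted p = 4.18e-05), Ndrg1 (1.42 ± 0.20, adjusted p = 2.02e-05), Epas1 (1.05 ± 0.19, adjusted p = 0.000299), Hif1an and Bhlhe40 rose beyond 1 on the log2 scale. Vegfa fell by 1.82 ± 0.34 (adjusted p = 0.000435), and Ankrd37, on chromosome 8, went from 9.20 to 17.6 CPM in WT to 1.02 to 2.44 CPM (adjusted p = 0.000195). In DDX6 KO Bnip3 fell by 1.16 ± 0.19 (adjusted p = 0.000201) and Ndrg1 by 1.33 ± 0.26 (adjusted p = 0.000709), and Stc2, at 3.07 to 7.13 CPM in WT, fell to 0.380 times the WT level (95% interval of the log2 change -2.51 to -0.28, adjusted p = 0.0486) with overlap between the groups, whereas Bhlhe40, on chromosome 6, rose by 2.29 ± 0.31 (adjusted p = 2.66e-05). Mycn rose in DGCR8 KO by 1.04 ± 0.20 (adjusted p = 0.000601), Mycl fell in DGCR8 KO by 1.89 ± 0.28 (adjusted p = 4.50e-05) and in DDX6 KO by 1.59 ± 0.23 (adjusted p = 5.26e-05), and Myc itself, at 0 to 2.46 CPM, was not tested. In the direct contrast P4ha1 (1.23 ± 0.18), Mxi1 (1.07 ± 0.18) and Max (1.05 ± 0.11) were also higher in DGCR8 KO by more than 1 on the log2 scale.

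**Figure D4:**
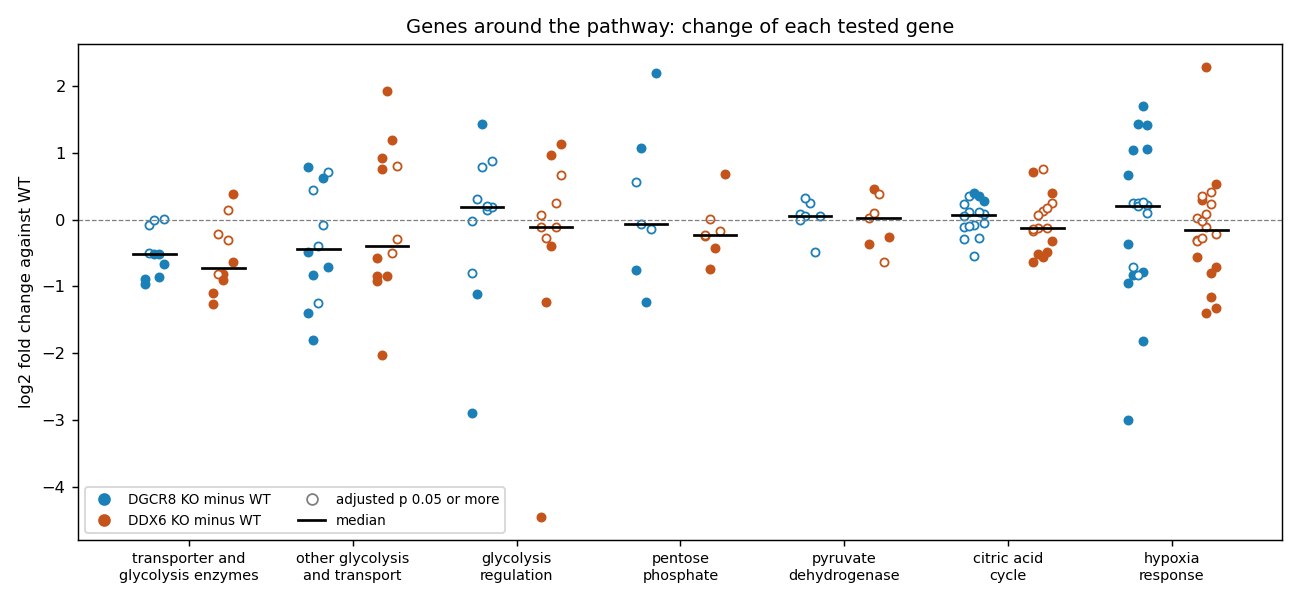
log2 fold change against WT (vertical axis, limma-voom) of every tested gene of 7 lists around glycolysis, with DGCR8 KO in blue, DDX6 KO in orange, open circles for an adjusted p of 0.05 or more and a black line at each median. The lowest medians are those of the 10 genes described (-0.52 and -0.72), and the medians of the citric acid cycle genes are 0.07 and -0.13.

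The promoters of Pfkp, Aldoa, Pkm and Ldha, which fell in each knockout, are shown because they moved together. They are RefSeq sequences of GRCm38.p6, from 250 bases before to 50 after a transcript start, in transcript direction. Where several starts were listed, the 1 within 100 bases of most annotated coding transcripts was taken. Capitals mark ACGTG and GCGTG on either strand, the core of the site bound by HIF, of which ACGTG is also part of the E-box CACGTG.
Pfkp, chr13:6648722-6649021, minus strand: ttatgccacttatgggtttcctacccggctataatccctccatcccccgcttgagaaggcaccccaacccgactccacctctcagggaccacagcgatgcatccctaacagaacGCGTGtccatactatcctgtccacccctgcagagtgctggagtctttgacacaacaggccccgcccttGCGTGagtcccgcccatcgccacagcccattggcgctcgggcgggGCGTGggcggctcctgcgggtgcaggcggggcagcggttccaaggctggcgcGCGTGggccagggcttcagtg
Aldoa, chr7:126799129-126799428, minus strand: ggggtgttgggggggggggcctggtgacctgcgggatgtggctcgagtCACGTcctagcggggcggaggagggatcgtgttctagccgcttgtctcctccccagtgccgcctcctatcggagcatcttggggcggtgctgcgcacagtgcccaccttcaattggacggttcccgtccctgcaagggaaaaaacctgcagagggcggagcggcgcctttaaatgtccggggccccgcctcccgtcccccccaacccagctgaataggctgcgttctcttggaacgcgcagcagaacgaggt
Pkm, chr9:59656326-59656625, plus strand: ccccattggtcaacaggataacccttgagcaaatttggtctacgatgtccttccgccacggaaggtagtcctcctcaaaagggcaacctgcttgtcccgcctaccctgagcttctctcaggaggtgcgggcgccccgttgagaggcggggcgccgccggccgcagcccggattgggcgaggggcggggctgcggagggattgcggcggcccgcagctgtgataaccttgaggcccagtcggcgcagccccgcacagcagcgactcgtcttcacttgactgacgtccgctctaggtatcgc
Ldha, chr7:46845554-46845853, plus strand: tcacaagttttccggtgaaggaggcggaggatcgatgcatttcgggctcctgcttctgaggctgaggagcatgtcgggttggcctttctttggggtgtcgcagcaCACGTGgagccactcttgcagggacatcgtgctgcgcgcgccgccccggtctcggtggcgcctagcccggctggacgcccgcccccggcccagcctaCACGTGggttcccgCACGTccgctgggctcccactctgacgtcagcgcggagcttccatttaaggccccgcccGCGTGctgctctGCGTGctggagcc
Ldha held 5 matches to ACGTG, 4 of them from 2 copies of CACGTG, which reads ACGTG on both strands, and 2 to GCGTG. Pfkp held 4 matches to GCGTG, Aldoa held 1 to ACGTG and Pkm held neither. Over all 10 genes, ACGTG was in 5 promoters, GCGTG in 4 and CACGTG in 1. Of all 32851 promoters of the same length, 19.6% held ACGTG, 32.4% GCGTG and 7.15% CACGTG. The motif GGGCGG was in 9 of the 10 and in 35.7% of all. G and C made up 57% to 67.3% of the bases in the promoters of the 10 genes. The shares over all promoters were not matched for base composition, so they do not show that a motif is particular to these genes. A match is a run of letters, and binding was not measured.

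The miR-290 family is the main miRNA family of naive ESCs, the miR-302 family comes up as they leave that state, and both need DGCR8. Mature sequences of 5 of them, from RefSeq, are given with the seed (bases 2 to 8) in capitals, which is the same in all 5.
mmu-miR-291a-3p: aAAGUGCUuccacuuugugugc
mmu-miR-294-3p: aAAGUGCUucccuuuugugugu
mmu-miR-295-3p: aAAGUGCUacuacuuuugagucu
mmu-miR-302b-3p: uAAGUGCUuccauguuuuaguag
mmu-miR-302d-3p: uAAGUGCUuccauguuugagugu
A match to this seed in RNA reads AGCACTT in the DNA letters of the annotation. In the 3' UTR of the main transcript of each of the 10 genes it was found once in Pfkp and once in Ldha, and in none of the other 8. For comparison, 16.8% of the 10904 tested genes with an annotated 3' UTR held at least 1 match, in UTRs with a median length of 1063 bases, while those of the 10 genes ran from 185 to 2285 bases. The windows are shown with the match in capitals.
Pfkp, chr13:6581364-6581390, minus strand: gttatttatcAGCACTTtatggaagca
Ldha, chr7:46855149-46855175, plus strand: cccgtgtcctAGCACTTcactgtccag
Both genes fell in DGCR8 KO. Whether the matches act as sites was not tested.

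The genes whose levels ran most like the mean standardised profile of the 10 genes, among 8620 genes averaging 10 CPM or more, were Klhdc4 (Pearson r = 0.974 over the 10 libraries), Gcsh (0.974), Eef1g (0.974), Colgalt1 (0.965) and Got1 (0.962). Klhdc4, Gcsh and Colgalt1 lie on chromosome 8. Got1, the cytosolic aspartate aminotransferase, averaged 222 CPM in WT, 113 CPM in DGCR8 KO and 121 CPM in DDX6 KO. The most opposite profiles were those of Gm2830 (-0.977), Fmn1 (-0.972) and Map3k2 (-0.968). These values describe 10 libraries in 3 groups. Within the set, the closest pairs were Pfkp with Pkm (r = 0.966), Aldoa with Pfkp (0.963), Aldoa with Ldha (0.948) and Aldoa with Pkm (0.927), and the most opposite were Gpi1 with Tpi1 (-0.672).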

How the data were processed

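The values used are the deposited counts, integers that hold, for every gene, the reads placed at a single position. Per the labels, the file header and the study's methods, the authors trimmed reads with cutadapt 1.14, aligned them to mm10 with STAR 2.5.3a and counted sense-strand exon reads with featureCounts 1.5.3 against Gencode without ribosomal RNA, plus 92 spike-ins, here set apart. Loss of reads with several places affects genes with many copies. Without molecular identifiers, floors cover counting error only.

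Libraries were grouped by title. Genes with at least 3 CPM in 3 libraries were scaled by TMM (edgeR 4.0.16) and fitted with limma-voom (limma 3.58.1, R 4.3.3) on all 10 libraries, with Benjamini-Hochberg adjustment over 11683 genes. DESeq2 1.42.0 and edgeR's quasi-likelihood test were alternatives. Shares used exact permutation tests, two-sided as double the smaller tail. Sequences came from RefSeq and GENCODE M21 (GRCm38), and identifiers were paired with symbols for 51274 genes. The fits were tested on simulated data. The 10 genes were named as all members, and other genes from the pathway, hypoxia and Myc lists when they passed with a log2 change beyond 1 or are isozymes of a member, as were Gapdh, Pgam1 and Hif1a. Isozyme genes that did not pass the filter are not reported here. Pitrm1, Tfap2c, Dnmt3b, Otx2, Lef1, Myc, Slc16a1, Sdhb, Mdh2, Idh3g, Suclg1 and Suclg2 were added after their values were seen. Members and lists were chosen with earlier results of these data known. Same-numbered WT and DGCR8 KO libraries deviated together weakly (r from 0.14 to 0.28 in 3 of 3 pairs, and -0.26 to -0.02 in the 6 other pairs). These numbers may therefore pair the libraries, which such values do not establish. For WT and DDX6 KO, r was -0.04 to 0.14 in same-numbered pairs and -0.15 to 0.17 in the others, so pairing there is undecided.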

Additional observations from a re-analysis of the deposited data

Results flagged for a closer look

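Aldoa in the 4 DDX6 KO libraries had 1 library, the first of clone 2 at 326 CPM, far from the other 3 at 299 to 303 CPM, with a gap of 0.863 of the range, above Dixon's critical value for 4 samples. It was the 1 such case among 14 groups looked at, and chance gives about 1 in 20. Even the highest library lay below every WT library.

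The difference between the effects of the knockouts passed in limma-voom for 5 of the 10 genes, 2 higher and 3 lower, where 23.0% of all genes tested were higher and 21.0% lower. The log2 difference, DGCR8 KO minus DDX6 KO, was -0.55 for Slc2a1, -0.66 for Hk2, -0.39 for Tpi1, 0.81 for Gpi1 and 0.39 for Pkm. Hk2 and Tpi1 lie on chromosome 6, whose median in this contrast was -0.52.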

How the results depend on the processing

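Of 17 changes of single genes that passed, 402 values under alternatives were computed, of which none turned direction, 379 still passed and 23 did not. Scaling by the spike-ins accounted for 16 of the 23. It moved the median of all genes by -0.15 in DGCR8 KO and by 0.05 in DDX6 KO, and left 0 genes falling in DGCR8 KO, 1 falling and 0 rising in DDX6 KO, and 0 higher and 0 lower in DGCR8 KO against DDX6 KO. With a log2 change beyond 1 the counts were 0 falling in DGCR8 KO, 2 falling and 0 rising in DDX6 KO, and 0 and 0 in the direct contrast. Tpi1 was also lost with an adjusted p under 0.01 (0 rising) and with clone 2 alone (0 rising). In DGCR8 KO against DDX6 KO, 1 gene was higher with total counts, with either clone alone or with an adjusted p under 0.01, and leaving out 1 library gave 1 to 4 higher. The replicate block (library numbers as pairs) gave 6 falling genes in DGCR8 KO, in a fit of all libraries and in a fit of WT and DGCR8 KO alone that was added after seeing the data. In DDX6 KO, where it is undecided whether numbers pair, the block gave 6 falling, Pgk1 being added (adjusted p = 0.0198), and changed no other call. The DGCR8 KO minus WT differences in the Slc2a1 share (-0.04 percentage points) and the Hk2 share (-0.17) turned when 1 library was left out, with ranges of -0.82 to 1.02 and -0.54 to 0.53. Pgk1 and Eno1 had few reads, and with a minimum of 10 CPM Pgk1 was not tested.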
